A study of Mus musculus with 13 samples.

Results

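The regions described here are stretches of the fibroblast genome that carried the histone mark H3K27ac in mouse embryonic fibroblasts (MEFs) but not in embryonic stem cells (ESCs), that overlapped an H3K27ac peak in control reprogramming cultures, and that overlapped none in cultures with an inactive HDAC3. They were selected on the H3K27ac peak calls themselves, as the intervals of the MEF list that overlapped, by at least 1 bp, no ESC peak, a peak of at least 1 of the 3 FLAG lists and no peak of the 3 HDAC3-YF lists. Of the 26591 MEF peaks, 17062 had no ESC peak (MEF-only regions) and 1494 of these met the rule, a share of 8.76% (95% Wilson interval 8.34 to 9.19%). They are called FLAG-only regions below, a name for the overlap of calls that does not say that the mark persisted from MEFs. The opposite rule, a peak in at least 1 HDAC3-YF list and in no FLAG list, took 906 MEF-only regions (5.31%), 2783 had peaks in both arms and 11879 in no OSKM list. These counts follow from the rule and are given as a description. At the edge of the rule, the longest overlap with a FLAG peak ran from 1 to 200 bp with a median of 121.5 bp and was under 50 bp for 258 of the 1494, while 413 regions without an OSKM peak had a FLAG peak centre within 300 bp, 294 regions in both arms overlapped HDAC3-YF peaks by under 50 bp, and 366 regions with an ESC peak met the rest of the rule.

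The series held 13 ChIP-seq libraries, 1 per group, of which 12 are used here as peak lists and the ESC input is not. H3K27ac was mapped in untreated C57BL/6J ESCs grown with LIF and the inhibitors CHIR99021 and PD0325901, in untreated C57BL/6J-OG2 MEFs (day 0), and in C57BL/6J-OG2 MEFs given OSKM (the transcription factors OCT4, SOX2, KLF4 and c-MYC used to reprogram cells) by virus, together with a FLAG control or with HDAC3-YF, a deacetylase-dead mutant of HDAC3, at days 5, 9 and 13. NCoR and SMRT were mapped in untreated ESCs and in MEFs with OSKM at day 9. All reprogramming cultures, controls included, therefore carried OSKM, and the labels give their cells only a presumed type. With 1 library per group there was no spread between replicates and no test between conditions, and the intervals cover the counting of regions only.

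H3K27ac marks active promoters and enhancers, and reprogramming requires that the enhancers of the starting cell type lose activity while those of pluripotent cells gain it. HDAC3 removes acetyl groups from histones and is activated by binding to the co-repressors NCoR and SMRT, so a mutant without catalytic activity that occupies the complex is a means to block that activity. MEFs are mesenchymal cells, and their specific enhancers lie around genes for extracellular matrix, the actin cytoskeleton and mesenchymal transcription factors, and are known as targets of AP-1, TEAD and RUNX factors.

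The upstream sequences of 6 genes are shown because FLAG-only intervals lay over them and they span the kinds of FLAG-only region found: regions far from any HDAC3-YF peak (Celf2, Batf3, Elf4), regions with an HDAC3-YF peak just beside them (Twist2, Sox11), and an upstream sequence with a peak in all 3 FLAG libraries (Zfp667). The genes were chosen after their values were seen. Each line gives the part of the 200 bp interval that lies in the 250 bases upstream of an annotated start, as RefSeq gives it for GRCm38.p6 (mm10 coordinates), on the strand of the gene. Capitals mark matches on either strand to AP-1 (TGANTCA), TEAD (GGAATG), RUNX (TGTGGT), C/EBP (TTGCNNCAA) or the E-box of MYC (CACGTG).
Celf2, chr2:7081303-7081418, minus strand: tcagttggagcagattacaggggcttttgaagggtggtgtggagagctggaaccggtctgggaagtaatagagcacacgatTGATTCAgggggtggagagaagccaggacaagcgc
Batf3, chr1:191098164-191098320, plus strand: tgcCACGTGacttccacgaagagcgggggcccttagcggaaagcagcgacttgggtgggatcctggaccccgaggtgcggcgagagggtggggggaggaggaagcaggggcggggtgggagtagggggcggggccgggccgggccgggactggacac
Elf4, chrX:48463133-48463304, minus strand: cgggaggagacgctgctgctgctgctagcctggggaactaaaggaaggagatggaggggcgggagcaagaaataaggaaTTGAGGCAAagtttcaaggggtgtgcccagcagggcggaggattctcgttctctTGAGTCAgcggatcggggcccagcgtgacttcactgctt
Twist2, chr1:91801271-91801460, plus strand: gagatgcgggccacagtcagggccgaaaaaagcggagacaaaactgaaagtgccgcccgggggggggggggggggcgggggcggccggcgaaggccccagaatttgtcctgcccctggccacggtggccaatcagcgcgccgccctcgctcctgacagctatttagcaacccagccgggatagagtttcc
Sox11, chr12:27342719-27342901, minus strand: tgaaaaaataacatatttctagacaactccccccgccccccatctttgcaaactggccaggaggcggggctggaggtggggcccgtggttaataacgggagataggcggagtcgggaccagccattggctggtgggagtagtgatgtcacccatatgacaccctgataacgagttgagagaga
Zfp667, chr7:6286441-6286579, plus strand: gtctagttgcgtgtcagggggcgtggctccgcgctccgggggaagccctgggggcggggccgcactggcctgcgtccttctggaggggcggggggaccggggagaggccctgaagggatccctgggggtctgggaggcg
The Celf2 and Elf4 sequences hold an AP-1 match, that of Elf4 also a C/EBP match, and that of Batf3 an E-box. The other 3 hold none of the 5 motifs. Such sequences of at least 100 bases were found for 50 genes, of which 38 hold none, so the examples have matches more often than the rest.

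The values behind these sequences differed widely. The file gives each peak a score without stating its scale, running from about 6.7 to a ceiling of 200 in the OSKM lists, and a score is used here only to rank peaks within a list. At the Celf2 start, which belongs to an RNA-binding splicing regulator, the score was 65.79 in MEFs, 11.35 with FLAG at day 5 and 14.35 at day 13, with no FLAG peak at day 9, and the nearest HDAC3-YF peak of any day lay 208906 bp away. At Batf3, an AP-1 family gene, it was 24.74 in MEFs and 7.41 with FLAG at day 5, and the nearest HDAC3-YF peak was 27785 bp away. At Elf4, an ETS factor gene, it was 37.79 in MEFs and 7.36 with FLAG at day 13, with 9282 bp to the nearest HDAC3-YF peak. The FLAG scores at Batf3 and Elf4 lay below the 25th percentile of their lists and those at Celf2 between the 25th percentile and the median, and none of the 3 had an HDAC3-YF peak within 9 kb.

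At Twist2, a mesenchymal transcription factor gene, the region had the ceiling score of 200 in MEFs and 31.95 with FLAG at day 5, and an HDAC3-YF peak of score 7.43 at day 13 lay 465 bp from its centre. At Sox11 the scores were 63.26 in MEFs, 28.70 with FLAG at day 9 and 19.05 at day 13, and HDAC3-YF peaks of 56.77, 47.53 and 7.23 at days 5, 9 and 13 lay 441, 435 and 442 bp away. At Zfp667, a zinc finger gene, the scores were 62.15 in MEFs and 8.99, 11.44 and 12.62 with FLAG at the 3 days. The nearest HDAC3-YF peak lay 266 bp away and the nearest ESC peak 213 bp away. At these 3 starts the interval itself was free of HDAC3-YF peaks, but the neighbourhood was not.

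This distinction held for the set as a whole. Of the 1494 FLAG-only regions 549, or 36.7% (34.3 to 39.2%), had the centre of an HDAC3-YF peak of some day within 1 kb, where the closest distance that the rule allows is 200 bp, and 313 had one within 300 bp. For these regions the name "FLAG alone" describes the 200 bp interval and not the locus. The other 945 regions had no HDAC3-YF peak centre within 1 kb (5.54% of MEF-only regions), and 426 had none within 20 kb. Regions of the opposite rule were split in a like manner, with 422 of 906 (46.6%) within 1 kb of a FLAG peak and 484 (2.84% of MEF-only regions) without one.

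**Figure D1:**
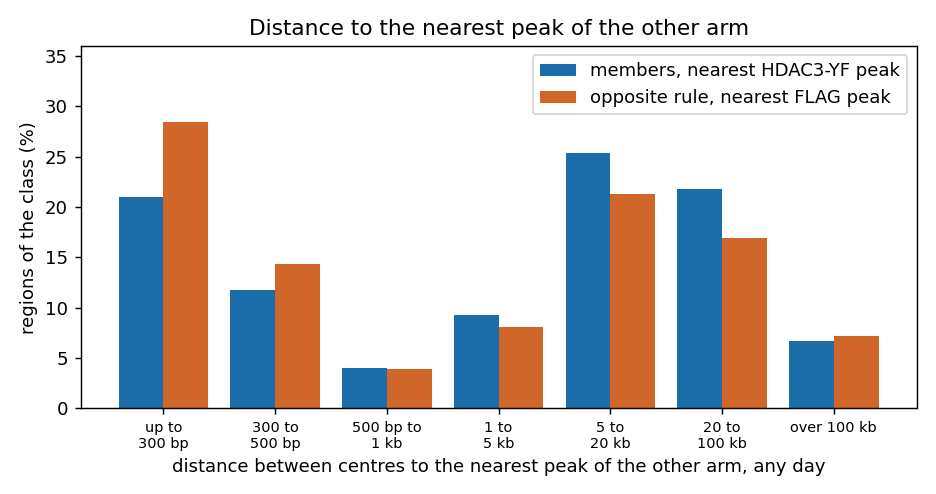
Share of FLAG-only regions (blue, n = 1494) and of regions of the opposite rule (orange, n = 906) by the distance between their centre and the nearest peak centre of the other arm at any day. The nearest band, up to 300 bp, held 21.0% of the FLAG-only regions and 28.4% of the opposite set, and 28.5% and 24.1% lay over 20 kb away.

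Where an HDAC3-YF peak of the same day lay within 1 kb, both peaks were scored in their own library, so the scores below are not comparable as heights. At day 5 this concerned 150 of the 405 regions with a FLAG peak (37.0%), with a median score of 17.0 for the FLAG peaks and 17.5 for the neighbouring HDAC3-YF peaks. At day 9 it concerned 223 of 761 (29.3%), with medians of 17.1 and 13.8. At day 13 it concerned 106 of 712 (14.9%), with medians of 12.2 and 10.0. The FLAG peaks with such a neighbour had a higher median in their own list than those without, which had medians of 8.87, 8.98 and 8.91 at the 3 days.

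Most FLAG-only regions had a peak at a single day. A FLAG peak was present at 1 day in 1150 (77.0%), at 2 days in 304 (20.3%) and at all 3 days in 40 (2.68%). A day 5 peak was present in 405, a day 9 peak in 761 and a day 13 peak in 712. The commonest patterns were day 13 alone (472), day 9 alone (458), day 5 alone (220) and days 9 and 13 together (159). Of the 906 regions of the opposite rule 284 were marked at day 5 alone, 265 at day 9 alone, 221 at day 13 alone and 29 at days 9 and 13. FLAG-only regions thus outnumbered the opposite set in every pattern other than day 5 alone, with the highest ratio at days 9 and 13 together and the largest excess by number at day 13 alone. No FLAG peak was called at day 5 in 1089 of the 1494, so for most of them the calls do not show acetylation held from MEFs through day 5. Taken day by day over all MEF-only regions, 5.00% had a FLAG peak without an HDAC3-YF peak at day 5 and 5.30% the reverse, against 8.02% and 4.05% at day 9 and 7.87% and 3.69% at day 13.

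**Figure D2:**
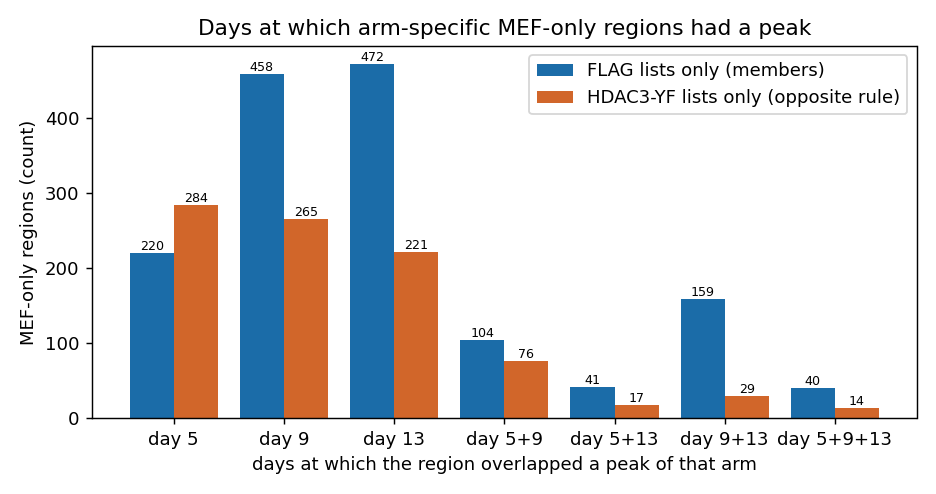
Number of MEF-only regions with a peak in FLAG lists alone (blue, n = 1494) or HDAC3-YF lists alone (orange, n = 906), by the days at which the peak was present. The blue bars are higher in each pattern apart from day 5 alone, where they stand at 220 against 284.

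The lists differed in length. The day 5 lists held 15645 FLAG and 16944 HDAC3-YF peaks, those of day 9 held 16428 and 15241, and those of day 13 held 15394 and 14251. When the longer list of a day was trimmed by score to the length of the shorter, 1368 regions met the rule and 910 the opposite rule. With the top 50% of each list by score the counts were 543 and 284. Days differ in time of reprogramming and in culture, and these cannot be told apart.

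By median MEF score, FLAG-only regions stood between regions in both arms and those in no OSKM list. Their MEF score had a median of 29.6, with the lowest at 6.22, the 25th and 75th percentiles at 13.2 and 76.0 and the highest at 200. The median was 18.6 over all MEF-only regions, 24.6 for the opposite set, 98.1 for regions in both arms and 14.5 for those in no OSKM list. By MEF score the FLAG-only share was 5.42% (4.79 to 6.13%) under 10, 7.33% (6.61 to 8.13%) from 10 to 20 and 10.1% (9.18 to 11.1%) from 20 to 50. It was 13.6% (12.1 to 15.3%) from 50 to 100, 13.5% (11.7 to 15.6%) from 100 to under 200 and 9.94% (8.48 to 11.6%) at 200. Over the same bins the share with peaks in both arms went from 4.92% to 6.45%, 12.8%, 23.1%, 39.1% and 65.9%. The median score was higher in regions with a FLAG peak at all 3 days (54.5) or at 2 days (45.0) than in those with 1 day (25.6). Regions with an HDAC3-YF peak within 1 kb had a median MEF score of 52.7, and 104 of the 549 stood at 200, against 23.9 and 35 of 945 for the others. The highest FLAG-only regions of the MEF list were thus mostly those with HDAC3-YF acetylation next to them.

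**Figure D3:**
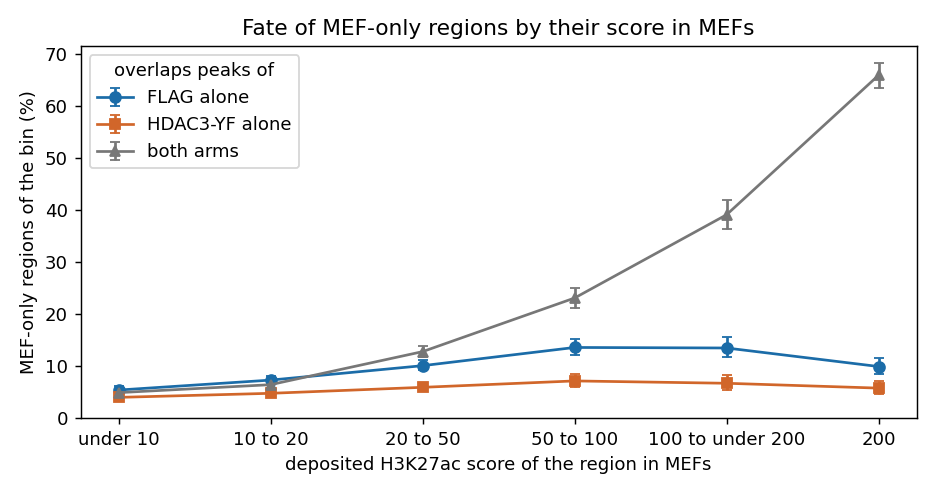
Share of MEF-only regions with peaks in FLAG lists alone (blue), HDAC3-YF lists alone (orange) or both (grey), by bin of the deposited MEF score, with 95% Wilson intervals. The FLAG-alone share is 5.42% in the lowest bin and 13.6% from 50 to 100, and lies above the HDAC3-YF-alone share in each bin, while the share in both reaches 65.9% at the ceiling.

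In the FLAG libraries themselves the peaks over these regions stood near the bottom of the lists. At day 5 the median FLAG score was 10.6 over the FLAG-only regions, 24.5 over regions in both arms and 26.4 over the whole list. The corresponding medians were 9.79, 24.9 and 24.2 at day 9, and 9.23, 16.6 and 15.7 at day 13. Scores below the 25th percentile of the list were found at 55.3% of the FLAG-only regions at day 5, 56.8% at day 9 and 50.7% at day 13. Peaks of the opposite set were also low in the HDAC3-YF lists, with medians of 10.5, 10.0 and 8.74. Read depth is unknown, the lists end at scores of 6.68 to 6.72, and how many of these regions held signal just under the calling threshold in the HDAC3-YF libraries was not tested. Fewer cells with the mark and less mark per cell cannot be told apart in these bulk libraries.

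**Figure D4:**
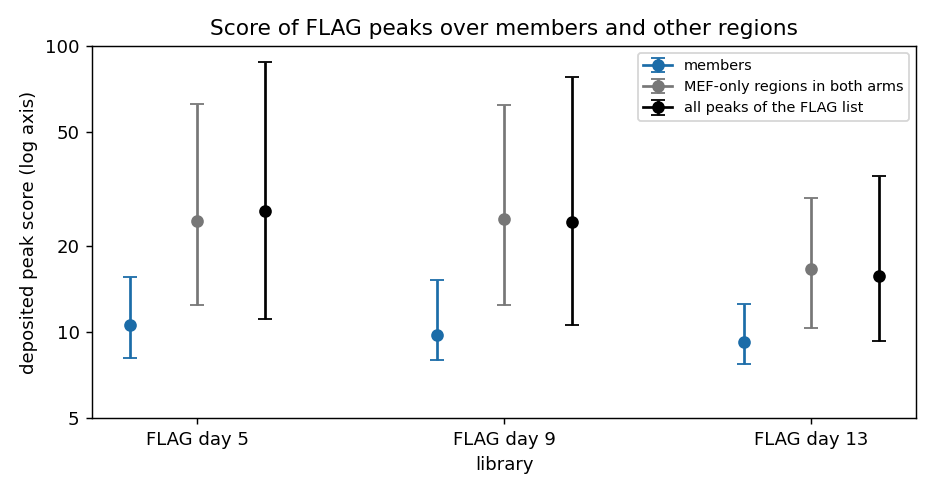
Deposited peak score in the FLAG libraries of days 5, 9 and 13 (log axis), as median (point) and 25th to 75th percentile (bar), for FLAG-only regions (blue), MEF-only regions in both arms (grey) and all peaks of the list (black). The blue medians lie at 10.6, 9.79 and 9.23, close to the lower end of each list.

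The 40 regions with a peak in all 3 FLAG libraries are the most recurrent of the set. Of the 12 highest by MEF score, 9 had an HDAC3-YF peak within 1 kb. At chr3:89214434-89214633, 626 bp from Mtx1, which encodes a mitochondrial import protein, the score was 200 in MEFs and in all 3 FLAG libraries, and HDAC3-YF peaks of 200, 200 and 170 lay 274, 228 and 255 bp away. In Itpkc (chr7:27228341-27228540), an inositol phosphate kinase gene, it was 200 in MEFs and 116, 126 and 19.7 with FLAG, beside HDAC3-YF peaks of 97.5, 157 and 54.4. In Mxi1 (chr19:53313182-53313381), whose product competes with MYC for its partner MAX, it was 200 in MEFs and 159, 200 and 35.8 with FLAG, and HDAC3-YF peaks of 191 and 199 lay 203 and 208 bp away at days 5 and 9. These 3 loci were acetylated in both arms at days 5 and 9 with intervals that only just failed to meet. The same held for ESCs, whose nearest peak centres lay 545, 237 and 357 bp from the Mtx1, Itpkc and Mxi1 regions.

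The recurrent regions in Znrf1, Trim7, Rere and Arid5b and the intergenic ones nearest to Arntl (38281 bp) and Sec61b (120668 bp) also had an HDAC3-YF peak within 1 kb of their centre, at 200 to 355 bp. Inf2, a formin gene of actin assembly, was different. Its region (chr12:112589002-112589201) had 200 in MEFs and 8.72, 7.33 and 9.75 with FLAG, and the nearest HDAC3-YF peak lay 6841 bp away. In Nedd9, a focal adhesion scaffold gene, the region (chr13:41339774-41339973) had 155 in MEFs and 8.18, 6.89 and 8.41 with FLAG, with 19028 bp to an HDAC3-YF peak. In Gpatch1 it had 80.0 in MEFs and 11.6, 14.1 and 9.24 with FLAG, with 1534 bp to an HDAC3-YF peak. The nearest ESC peaks lay 31192, 89741 and 387 bp from the regions in Inf2, Nedd9 and Gpatch1. Of the 40 recurrent regions 14 had no HDAC3-YF peak within 1 kb, and they included regions in the nuclear factor gene Nfia, in Lrmda, in Klhl33 and in Hspa12b. In those 4 the FLAG scores lay between 7.58 and 28.0.

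By position, FLAG-only regions stood between the regions with peaks in both arms and those in no OSKM list. A protein-coding gene began or ended within 1 kb of 283 of them, or 18.9% (17.0 to 21.0%), against 14.4% of all MEF-only regions, 23.8% (21.2 to 26.7%) of the opposite set, 42.4% of regions in both arms and 6.50% of those in no OSKM list. The share was 15.2% (13.1 to 17.7%) for the 945 regions without a nearby HDAC3-YF peak and 25.3% (21.9 to 29.1%) for the 549 with one. Gene bodies held 960 (64.3%) and 534 (35.7%) lay outside protein-coding genes. The share in gene bodies was 60.4% over all MEF-only regions, 70.8% for the opposite set, 72.8% for regions in both arms and 56.3% for those in no OSKM list. On the chromosomes of the promoter table the median distance to an annotated start was 26.0 kb, against 35.7 kb over all MEF-only regions and 7.50 kb for regions in both arms. The annotation used gives no exons, so exons and introns were not separated.

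Some FLAG-only regions lay close to each other. Another one lay within 20 kb of 205 (13.7%), and the median distance to the next was 257 kb. The spacing of other MEF-only regions was not measured, so whether these values are high or low for such a set was not tested. By chromosome they made up between 6.71% (chromosome 16) and 11.4% (chromosome 11) of the MEF-only regions, leaving aside chromosome Y with 1 such region. An ESC peak centre lay within 1 kb of 259 (17.3%), although none overlapped, against 14.5% of all MEF-only regions and 24.3% of the opposite set. The share was 46.3% for regions in both arms and 5.88% for those in no OSKM list. Among FLAG-only regions it was 37.3% for the 549 with an HDAC3-YF peak within 1 kb and 5.71% for the other 945.

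Co-repressor peaks were about as frequent at FLAG-only regions as at MEF-only regions in general. A day 9 NCoR or SMRT peak overlapped 34 of them, or 2.28% (1.63 to 3.16%), against 2.03% of all MEF-only regions, 2.32% of the opposite set, 8.95% of regions in both arms and 0.354% of those in no OSKM list. The 34 comprised 29 with NCoR and 22 with SMRT, 17 of them with both. ESC co-repressor peaks overlapped 18 (1.20%), against 1.26% of all MEF-only regions. When 50% of an interval had to overlap for H3K27ac peaks to count as shared, the day 9 share was 6.39% (5.33 to 7.64%), against 4.98% of all MEF-only regions so defined, 5.39% of the opposite set and 20.5% of regions in both arms. Without day 13 it was 3.43% (2.56 to 4.59%), against 2.03% of all MEF-only regions, 2.61% of the opposite set and 9.58% of regions in both arms. The ESC share was then 2.56%, against 1.26%, 1.66% and 5.57%. Without the day 9 H3K27ac lists the day 9 share was 2.91% (2.13 to 3.95%), against 2.03%, 2.82% and 11.1%.

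Of the 34 regions with a day 9 co-repressor peak 17 had no HDAC3-YF peak within 1 kb. The 8 highest by MEF score, all at 200, lay at Mtx1, Itpkc, Zfpl1, Mecom, Irs1, Rpl3 and Arhgef10 and 47186 bp from Rbx1, and each had an HDAC3-YF peak within 204 to 326 bp. Irs1 encodes an adaptor of insulin signalling, and its region had FLAG scores of 23.08 at day 5 and 12.31 at day 9. Mecom encodes a zinc finger transcription factor, and its region had a FLAG score of 26.70 at day 5 alone. Further down the list, the region in Zbtb46 had 107 in MEFs and 13.2 with FLAG at day 13. Its nearest HDAC3-YF peak was 33844 bp away, but an ESC peak lay 351 bp away.

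Genes were examined with 20 kb on each side of the gene body, in 15 lists of 236 genes. These lists also serve as a check of the labels. MEF peaks were present at 32 of 33 fibroblast matrix genes and 14 of 30 pluripotency genes, and ESC peaks at 15 and 30. Of all 21883 protein-coding genes, 15002 had a MEF peak and 14875 an ESC peak in the same windows. Over all 21883 protein-coding genes 1658 (7.58%) had at least 1 FLAG-only region and 1110 (5.07%) a region of the opposite set. The median over all genes, and in each list, was 0. Windows differ in length and in the number of MEF-only regions, so the share of MEF-only regions that were FLAG-only is given too. That share was 8.76% genome-wide and 9.44% (8.96 to 9.96%) over the windows of all protein-coding genes.

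Fibroblast matrix genes had FLAG-only regions at 14 of 33, with 14 of their 100 MEF-only regions (14.0%, 8.53 to 22.1%) against 3 of the opposite set. The fibrillar and microfibrillar collagen genes Col1a2, Col5a1, Col6a1, Col6a2 and Col6a3 had 1 each, as did the collagen and elastin crosslinking enzymes Lox, Loxl1 and Loxl2. Of the 14 regions 7 had no HDAC3-YF peak within 1 kb. Without the day 13 libraries 9 of the 33 genes had a FLAG-only region. The number was 4 with the top 50% of each list by score and 7 without regions that had an HDAC3-YF peak within 1 kb. It was 9 to 14 under the other settings. In Col1a2 (chr6:4505688-4505887), 169 bp from an end of the gene, the score was 200 in MEFs and 20.3 with FLAG at day 13, and an HDAC3-YF peak of 18.9 at day 5 lay 377 bp away. In the fibrillin gene Fbn1 (chr2:125303069-125303268) it was 197 in MEFs and 7.11 with FLAG at day 5, with 15155 bp to the nearest HDAC3-YF peak. At Ccn2, a matricellular growth regulator, it was 200 in MEFs and 9.93 with FLAG at day 13, while HDAC3-YF peaks of 16.4, 11.6 and 34.8 lay within 383 bp at the 3 days. The interval for the share included both background values.

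Mesenchymal transcription factor genes had FLAG-only regions at 7 of 21, with 11 of 63 MEF-only regions (17.5%, 10.0 to 28.6%) against 2 of the opposite set, and 6 of the 11 had no HDAC3-YF peak within 1 kb. Twist1, a regulator of mesenchymal identity, had 2 such regions among 3 MEF-only regions. The region at chr12:33967102-33967301 had scores of 36.92 in MEFs and 8.33, 7.46 and 8.11 with FLAG, and an HDAC3-YF peak of 7.97 lay 491 bp away at day 5 alone. The region at chr12:33962902-33963101 had 32.37 in MEFs and 7.60 with FLAG at day 13, with 4691 bp to the nearest HDAC3-YF peak. All FLAG scores at these Twist1 regions lay below the 25th percentile of their list.

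Twist2, the relative of Twist1, had 2 among 5, the second inside the gene with 45.26 in MEFs, 8.13 with FLAG at day 9 and no HDAC3-YF peak within 15 kb. The forkhead gene Foxc1 had 2 among 3, both nearer to the neighbouring gene Gmds, and Osr1, a zinc finger regulator of mesenchyme, 2 among 4. At Osr1 the region in the gene (chr12:9574602-9574801) had 114 in MEFs and 10.1 with FLAG at day 13, and the nearest HDAC3-YF peak was 10641 bp away. Prrx1, Tbx18 and Meox2 had 1 each. Summed over the list, MEFs had 76 peaks in these windows, FLAG cultures 22, 34 and 26 at days 5, 9 and 13, and HDAC3-YF cultures 30, 15 and 20, so that at day 5 the HDAC3-YF sum was the larger. The interval of the share lay above both background values, but it treats regions as independent, and several of these shared a gene window. The lists were chosen with earlier results of these data known, and the share is a description. The number of genes with a FLAG-only region was 2 with the top 50% of each list by score and 5 to 8 under the other settings.

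Actin cytoskeleton and adhesion genes had FLAG-only regions at 10 of 31, with 12 of 147 MEF-only regions (8.16%) against 8 of the opposite set. Palld, an actin bundling protein gene, and Myh9, the gene of non-muscle myosin heavy chain, had 2 each. In Tpm4, a tropomyosin gene, the region had 37.6 in MEFs and 7.57, 18.0 and 19.4 with FLAG at the 3 days, with an HDAC3-YF peak of 17.5 at day 5, 315 bp away. In the integrin gene Itgb5 it had 200 in MEFs and 8.62 with FLAG at day 5, with 11477 bp to an HDAC3-YF peak. TGF-beta pathway genes had them at 6 of 18, with 8 of 94 regions (8.51%) against 4. The receptor gene Tgfbr2 and the signal transducer gene Smad3 had 2 each, and of the 8 regions 7 had no HDAC3-YF peak within 1 kb. Without day 9 the number of TGF-beta pathway genes was 3. Both shares were close to the genome-wide value.

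AP-1 genes had FLAG-only regions at 4 of 12, with 4 of 26 regions (15.4%, 6.15 to 33.5%) against 0 of the opposite set. Without day 9 the number of genes was 2. At Atf3, a stress-responsive member, the region centred 13 bp from an end of the gene (chr1:191183221-191183420) had 200 in MEFs and 63.9 with FLAG at day 9, and an HDAC3-YF peak of 62.9 lay 202 bp away on the same day. Beyond Fos, at 11389 bp from the gene, the region had 26.3 in MEFs and 9.65, 23.0 and 16.3 with FLAG, and HDAC3-YF peaks of 10.4 and 9.72 lay 215 and 208 bp away at days 9 and 13. The region in the window of Maff, inside Tmem184b, had 9246 bp to an HDAC3-YF peak, and Batf3 is described above. Tead3, Amotl1 and Vgll4 of the 15 Hippo, TEAD and YAP genes had 1 each (3 of 59 regions, 5.08%), as did Runx1 and Runx2 of the 8 RUNX and C/EBP genes (2 of 27, 7.41%), where the opposite set had 3 and 4 regions.

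Other lists had few MEF-only regions, and their counts of 0 to 2 genes changed by at most 1 gene when a day was left out. Of the co-repressor complex genes, Hdac3 and Coro2a had 1 each, the first 20 bp from the neighbouring gene Fchsd1 and the second 28 bp from an end of Coro2a, with MEF scores of 18.51 and 10.11 and FLAG scores of 9.78 at day 9 and 7.84 at day 5. The opposite set also had 2 regions in this list. Pluripotency genes had 2 of 11 regions (18.2%, 5.14 to 47.7%) and also 2 of the opposite set. They lay in the windows of Klf2 and Utf1, both beside an HDAC3-YF peak within 246 bp. None of the 15 MEF-only regions at epithelial genes and none of the 7 at housekeeping genes was FLAG-only, against 2 and 1 of the opposite set.

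Markers of other cell types were included because MEF cultures can hold them. The 8 endothelial genes had 17 MEF-only regions, of which 4 (23.5%, 9.56 to 47.3%) were FLAG-only and 0 were of the opposite set. Of these, 3 lay in Pecam1, the gene of a junctional protein of endothelium and blood cells, and 1 in Erg, an ETS factor gene. At Pecam1 the highest region (chr11:106674874-106675073) had 33.06 in MEFs, 36.39 with FLAG at day 9 and 23.28 at day 13, and the nearest HDAC3-YF peak was 8428 bp away. The window held 5 peaks in MEFs, 5 in ESCs, 2, 4 and 2 with FLAG and 1, 0 and 1 with HDAC3-YF at the 3 days. Summed over the list, FLAG cultures had 6, 8 and 4 peaks and HDAC3-YF cultures 5, 2 and 3. Tek, with 0 peaks in MEFs, had 4, 4 and 1 of these with FLAG and 3, 2 and 1 with HDAC3-YF. Erg and Sox17 also had peaks in some OSKM libraries, while Cdh5, Kdr, Tie1 and Emcn were at 0 in all 6. Myeloid, muscle and cartilage, and neural markers had 1 of 9, 1 of 5 and 3 of 5 regions, the last in the windows of Nes (2, nearer to Crabp2 and Bcan) and Sox11. With the top 50% of each list by score, 0 endothelial genes and 1 neural gene had a FLAG-only region. The part of such cells in the FLAG-only set was not tested.

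**Figure D5:**
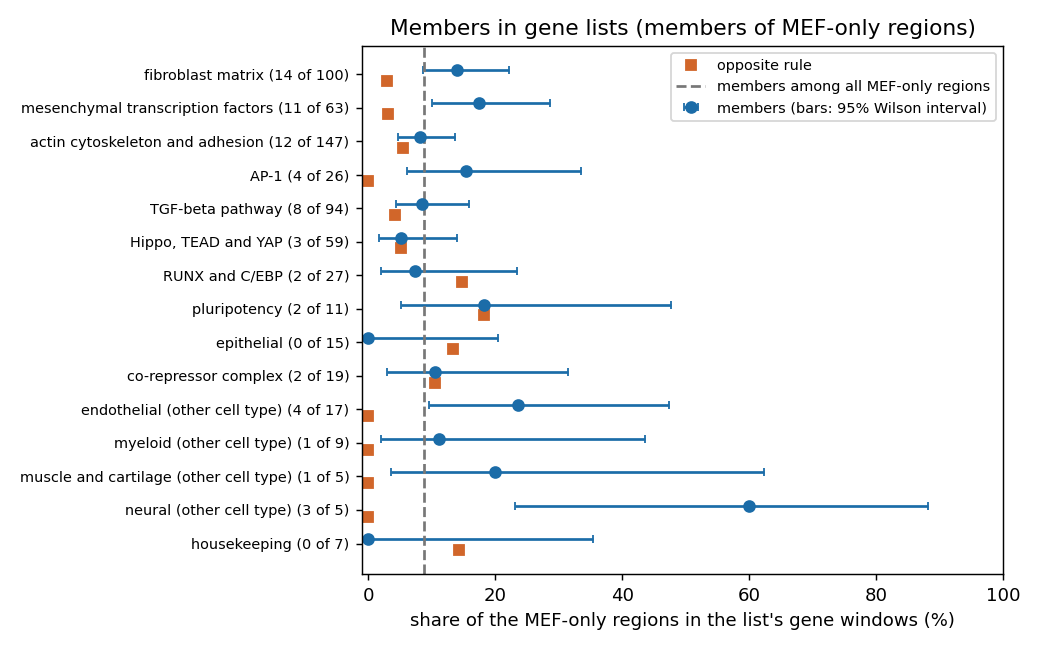
Share of the MEF-only regions in the gene windows of each list that were FLAG-only (blue, with 95% Wilson intervals) or of the opposite set (orange squares), with both counts for the first in brackets. The dashed line marks 8.76%, the share over all MEF-only regions. Most intervals include it, with mesenchymal transcription factors, endothelial and neural markers above it. The intervals treat regions as independent, but 3 of the 4 endothelial regions lay in Pecam1 and 2 of the 3 neural regions in the window of Nes.

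The genes with the most FLAG-only regions also had many MEF-only regions. Aopep, an aminopeptidase gene, had 5 of 23, and Gas7, Itpr1, Nfix and Nsmce2 had 4 each, of 11, 11, 12 and 15. At Gas7, a regulator of the actin cytoskeleton, none of the 4 had an HDAC3-YF peak within 1 kb and all 4 had their FLAG peak at day 9 alone. Their MEF scores were 97.57, 135.95, 13.30 and 27.59, their FLAG scores 6.99, 6.80, 11.99 and 19.83, and their distances to an HDAC3-YF peak 34272, 22922, 7220 and 41120 bp. The Gas7 count was 2 with equal numbers of peaks within each day and 0 with equal numbers over all lists, and without day 9 none of these 4 met the rule while 1 other region did. Its window held 12 peaks in MEFs, 3, 10 and 5 with FLAG and 2, 3 and 2 with HDAC3-YF at days 5, 9 and 13. In Nfix, a nuclear factor I gene, by contrast, 3 of the 4 regions had an HDAC3-YF peak within 285 bp.

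Antxr1, a collagen-binding receptor gene, had 3 of 14 and Asap1, an Arf GTPase regulator, 3 of 8. All 3 Antxr1 regions were over 18 kb from an HDAC3-YF peak, with MEF scores of 18.91, 33.33 and 44.72. Abhd2 had 3 of 9, all with their FLAG peak at day 9 alone (11.85, 7.11 and 7.02) and with HDAC3-YF peaks 1584, 5046 and 12664 bp away. Without day 9 the counts were 0 at Abhd2, 1 at Cchcr1 and 2 at Itpr1 and Nsmce2, without day 13 they were 1 at Antxr1 and 2 at Asap1, and without day 5 they were 3 at Aopep and 1 at 6030468B19Rik. The window of 6030468B19Rik had 3 of 4. The window of Cchcr1 had 3 of 6, of which 1 lay in the neighbouring reprogramming factor gene Pou5f1 with 7.12 in MEFs and 6.77 with FLAG at day 9. In all, 1459 genes had 1 FLAG-only region, 161 had 2, 33 had 3, 4 had 4 and 1 had 5.

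Motif frequencies in promoters at FLAG-only regions could not be told apart from those in promoters at large. Promoter windows, from 250 bases before to 50 after an annotated start, met a FLAG-only interval at 124 starts of 119 genes. An AP-1 match was present in 10 (8.06%, against 6.99% of all 21237 promoter windows of protein-coding genes), a TEAD match in 13 (10.5% against 13.6%), a RUNX match in 14 (11.3% against 15.0%), a C/EBP match in 3 (2.42% against 1.79%) and an E-box in 12 (9.68% against 7.84%). The 95% interval of each share included the value for all promoters. With 3 to 14 matches per motif these intervals are wide and do not show that the frequencies are equal. These windows cover the minority of FLAG-only regions near starts, and the distal ones were not searched.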

How the data were processed

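The authors deposited 1 peak list per library, and every interval is 200 bp wide. Bowtie2 2.2.0, MACS 1.4 and mm10 are named in the submitters' processing notes, without settings, and how peaks were brought to 200 bp and what the deposited score measures are not stated in the sources used. Groups follow the sample titles. Classes were set by overlap of at least 1 bp in Python 3.11.15 with pandas 2.3.3, and distances are between centres. Class and distance code was tested on simulated intervals. Gene positions and upstream sequences came from RefSeq tables of GRCm38.p6, and all list genes matched by symbol. Shares carry 95% Wilson intervals from statsmodels 0.14.6, which treat regions as independent. The members and lists were chosen with earlier results of these data known. Genes named were the 10 with the most regions, up to 6 per list, the 12 highest regions found in all 3 FLAG lists and the 8 highest with a day 9 co-repressor peak, by MEF score, with ties by list order. Others were chosen after their values were seen. Alternatives were other overlaps, distances, score thresholds, list sizes, merged peaks, days left out and 5 kb flanks.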

Additional observations from a re-analysis of the deposited data

Results flagged for a closer look

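Over all MEF-only regions the share with an HDAC3-YF peak minus the share with a FLAG peak was 0.299 points at day 5, -3.97 points at day 9 and -4.18 points at day 13, so the single day 5 pair went the opposite way to the later pairs. With 1 library per arm and day this difference between days was not tested.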

How the results depend on the processing

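The number of FLAG-only regions and of the opposite set stayed within 1.5 times 1494 and 906 under all settings apart from 3. They were 770 and 465 with 14251 peaks from every H3K27ac list, 543 and 284 with the top 50% of each list, and 945 and 484 without regions that had a peak of the other arm within 1 kb. FLAG-only regions outnumbered the opposite set 1.44 to 2.09 times over all settings. The share at a gene end was 24.6% within 2.5 kb, 47.5% with the top 50%, 33.0% with an overlap of 50%, 24.9% with equal numbers, 24.8% and 21.6% without day 13 and day 9, 15.2% and 14.7% without an HDAC3-YF or an ESC peak within 1 kb, and 12.9% with centres within 1 kb as shared. The day 9 co-repressor share was 4.69% with co-repressor centres within 1 kb, 7.73% with the top 50%, 6.39% with an overlap of 50%, 3.43% without day 13, 1.46% without a nearby ESC peak and 1.45% with centres within 1 kb as shared. The ESC co-repressor share under the same settings, apart from that on ESC peaks, was 2.68%, 3.50%, 2.99%, 2.56% and 0.655%. Over all MEF-only regions the share at a gene end also moved, from 14.4% to 32.9% with the top 50% and 22.4% with an overlap of 50%. It was 18.9% within 2.5 kb. The day 9 co-repressor share of all MEF-only regions moved from 2.03% to 6.46% and 4.98%, and their ESC share from 1.26% to 3.43% and 2.92%. With co-repressor centres within 1 kb these shares of all MEF-only regions were 4.39% and 2.83%, close to those of FLAG-only regions. With a day left out these background shares did not change. The cause of the moves in either set was not tested. Of 792 values for 66 named genes 285, and of 180 for the 15 lists 62, moved by over 1.5 times. Equal numbers within each day were chosen after the data were examined. No paired analysis was possible because the groups hold 1 library each and share a single replicate number. The FLAG and HDAC3-YF libraries are matched by day, but the regions were chosen on these 3 pairs, so they were not tested on them. Read depth is unknown, and peaks near the end of a list are the least certain.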
